A study of Mus musculus with 10 samples.

Results

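The genes of the heterotrimeric G proteins and of the small GTPases were followed through a study of dexamethasone in M-1 cells. A clone counted as a member when the platform annotation gave it a single gene symbol and that symbol belonged to the G protein alpha, beta or gamma subunits, the RGS proteins, or the Rab, Arf, Arl, Sar1, Rap, Ral, Ran or Ras families. The choice used names and no measured value. It gave 100 clones of 75 genes, of 15600 clones on the array, of which 9866 carried a single symbol and stood for 7142 genes. The members comprised 18 clones of 12 G protein subunit genes, 10 clones of 7 RGS genes, 35 clones of 29 Rab GTPases, 9 clones of 8 Rab partner genes, 12 clones of 8 Arf, Sar1 and Arl genes, 1 clone of the Arl partner Arl14ep, 12 clones of 8 genes of the Ras branch, 1 clone of Rap1gap and 2 clones of Ran.

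M-1 cells are a mouse cortical collecting duct line, established from an animal transgenic for the early region of a simian virus. Confluent cultures were first held without steroid hormones. The treated group then received 100 nM dexamethasone, a synthetic glucocorticoid, for 3 h, and the control group received steroid-free medium for the same time. RNA was hybridised to spotted cDNA arrays on which each clone has 2 neighbouring spots. On 3 arrays treated RNA was read in Cy5 and control RNA in Cy3, and 2 further pairs of channels held control RNA in both dyes. Values below are log2 Cy5/Cy3 ratios after centring each pair, so a positive value on a treated array means more signal from treated than from control RNA.

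The treated arrays listed 3778, 3994 and 4002 of 31200 spots, and only spots with outlying ratios, whose smallest size was 0.29, 0.48 and 0.27 in treated replicates 1, 2 and 3. These replicates are called treated arrays 1, 2 and 3 here and bear the array numbers 3, 4 and 5 in their titles. The control pairs listed 31022 and 30942 spots. A treated ratio was therefore either large or missing, and the median over listed spots is not the median of a gene family. Median intensities were 355, 408 and 880.5 in treated Cy5 and 383, 544 and 793.5 in the Cy3 channels beside them, against 327 and 1076 in Cy5 and 488 and 867 in Cy3 of the control pairs. Titles and treatment fields contradict each other for 5 of the 7 channels titled control, which the treatment field gives as dexamethasone, and directions here follow the titles. No dye was swapped and the control pairs lay on other arrays, so dye, array set and treatment cannot be told apart. No label says that replicates were separate cultures, so p-values cover only the spread among these samples, and that spread may be technical. Of the 19 collecting duct and epithelial markers listed, 9 had a named clone, and Aqp2, Avpr2 and the 3 epithelial sodium channel subunits Scnn1a, Scnn1b and Scnn1g were among the 10 without one, so the identity of the line was not checked by its defining genes. Clones of these markers gave 4 spots listed higher and 1 lower of 84, fibroblast markers 4 and 3 of 84, leukocyte and endothelial markers 0 and 1 of 18, and proximal tubule markers 1 and 1 of 12; the part of other cell types in the member values was not tested.

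Heterotrimeric G proteins carry signals from cell surface receptors. An activated receptor makes the alpha subunit exchange GDP for GTP and part from the beta-gamma dimer, both parts then act on enzymes and channels, and RGS proteins speed the hydrolysis of GTP that ends the signal. Small GTPases switch between the same nucleotides: Rab proteins direct the docking and fusion of vesicles, Arf and Sar1 assemble vesicle coats, Ras and Rap relay growth and adhesion signals, and Ran drives transport through nuclear pores. In the collecting duct, vasopressin acts through a G protein and cyclic AMP to bring vesicles with water channels to the apical membrane, a traffic in which Rab11 proteins take part, and glucocorticoids act through receptors that bind DNA at paired, facing half-sites of the letters AGAACA.

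Upstream sequence of RefSeq genes (build GRCm38.p6) was available for 68 of the 75 member genes, and 3 windows of bases before the transcription start are shown: those of Gnb1 and Sar1a, whose clones had the most spots listed lower, and that of Rab17, an epithelial Rab with a clone listed higher and a half-site. Capitals mark the half-site, here read on the opposite strand as TGTTCT. Gnb1 lies at chr4:155491111-155491360 on the plus strand, Sar1a at chr10:61680035-61680284 on the plus strand, and Rab17 at chr1:90967668-90967917 on the minus strand.
Gnb1: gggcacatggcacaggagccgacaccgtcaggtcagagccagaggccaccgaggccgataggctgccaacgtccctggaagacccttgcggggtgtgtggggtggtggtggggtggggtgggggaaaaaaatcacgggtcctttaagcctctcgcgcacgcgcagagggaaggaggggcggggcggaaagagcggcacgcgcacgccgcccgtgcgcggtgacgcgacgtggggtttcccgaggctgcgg
Sar1a: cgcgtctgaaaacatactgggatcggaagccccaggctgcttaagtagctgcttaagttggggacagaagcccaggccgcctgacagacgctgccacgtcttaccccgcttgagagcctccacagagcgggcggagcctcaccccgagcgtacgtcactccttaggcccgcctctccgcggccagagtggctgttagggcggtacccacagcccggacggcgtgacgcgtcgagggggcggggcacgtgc
Rab17: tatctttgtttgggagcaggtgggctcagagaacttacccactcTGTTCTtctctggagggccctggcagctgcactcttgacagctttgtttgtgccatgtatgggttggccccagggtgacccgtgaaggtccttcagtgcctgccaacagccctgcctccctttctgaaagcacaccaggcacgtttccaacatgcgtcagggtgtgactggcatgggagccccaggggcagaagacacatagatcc
The letters AGAACA or TGTTCT, searched as the same motif on both strands, occurred in 16 of 97 member windows of 250 bases before to 50 after the start (16.5%), against 6233 of all 32851 windows (19.0%). Among genes with a listed clone, Rab11a, Rab17, Rab32 and Rgs12 had a window with a match. Rab17 and Rgs12 were listed higher, but Rab11a and Rab32 were listed lower. The Gnb1 and Sar1a windows held none. A pair of facing half-sites 3 bases apart was found in 0 of 97 member windows and in 3 of all windows. No window was matched for Gnai2, Rab11fip1, Rab18, Rab30, Rap1a, Rasd1 and Rgs11.

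On the treated arrays, 45 of the 100 member clones were listed at least once, from 41 of the 75 genes. Of all clones, 51.8% were listed at least once. Listing on 2 or more treated arrays was found for 10 member clones (13.7% of all clones), and 3 of these were listed on every treated array (1.38% of all clones). These shares lie close to those of the array as a whole. Their 58 values from a clone on an array rested on 1 spot in 47 cases and on both spots in 11, which is 19.0% against 12.8% over all clones. Mean intensity over the control pairs ran from 399.5 to 10411 among members with a median of 886, against a median of 698 over all clones.

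By direction, 44 member spots were listed higher and 25 lower out of 600. Over all clones, 6.36% of spots were listed higher and 6.22% lower. The member shares were 7.33% higher and 4.17% lower, so 63.8% of listed member spots were higher, against 50.6% of all listed spots. This excess differed between arrays: 17 higher and 5 lower on treated array 1, 11 and 12 on treated array 2, and 16 and 8 on treated array 3, each of the same number of spots as a control pair. When the control pairs, which held no treated RNA by their titles, had their most outlying spots taken at a like share, members gave 11 higher and 4 lower in pair 1 and 8 and 13 in pair 2. A lean to 1 side of that size thus also stood in a pair without treatment by its titles. Gnai2 alone gave 9 of the 44 higher spots, and the other members gave 35 higher and 25 lower (58.3% higher). These shares are descriptions without a test, and a pooled culture reading cannot tell fewer expressing cells from less RNA per cell.

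**Figure D1:**
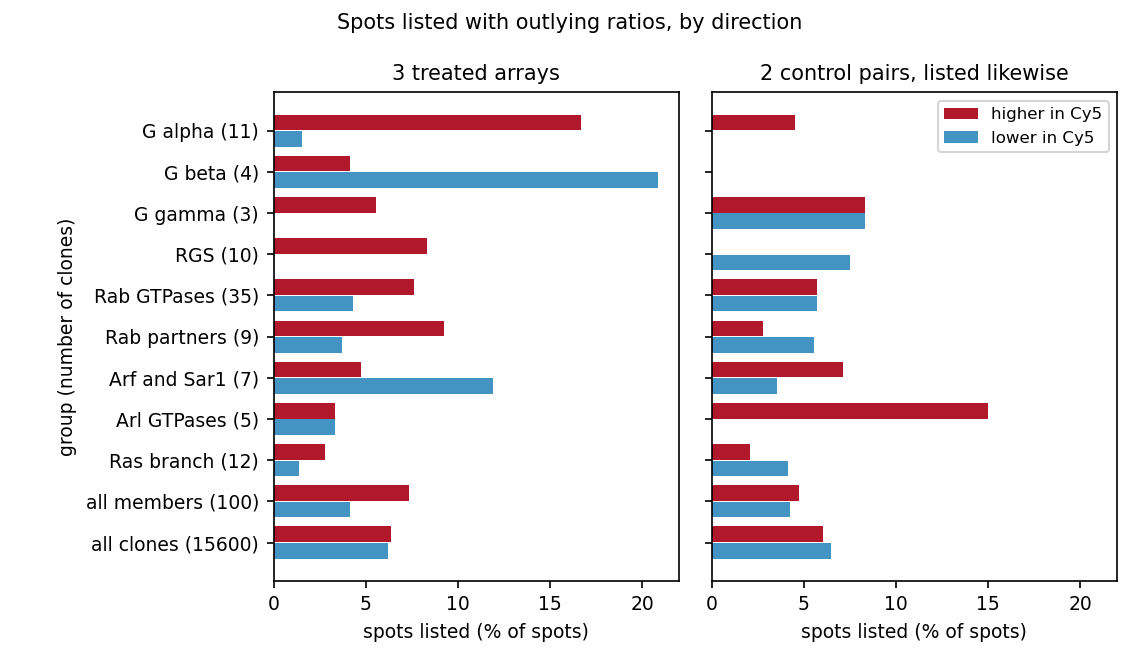
Share of spots listed with outlying ratios (horizontal axis, % of possible spots) for each group of members and for all clones, split by spots higher and lower in Cy5, for the 3 treated arrays and for the most outlying spots of the 2 control pairs at a like share. The G alpha group reaches 16.7% higher against 1.52% lower on the treated arrays, with 9 of its 11 higher spots from Gnai2, and all clones stand at 6.36% and 6.22%.

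No member passed the adjusted threshold of 0.05 in any comparison of treated with control pairs. In limma with Benjamini-Hochberg adjustment over the 2131 clones valued in 2 or 3 treated pairs, 0% of clones were called, 25.8% (550 clones, 285 higher and 265 lower) had an unadjusted p under 0.05, and 1 of the 10 members, Rab3ip, was among them. Over the 213 clones valued in all 5 pairs, 0.469% were called, which is 1 clone and no member. All treated ratios lay above both control pairs for 3 of the 10 members (Rab3ip, Rab1a and Rab22a), against 28.5% of the clones fitted, and below both for 2 (Sar1a and a Gnb1 clone), against 27.5%. Because only outlying ratios are listed on the treated arrays, such shares are high by construction, and the members lie near them. The median difference of treated minus control pairs was 0.31 over the 10 members and 0.02 over all 2131 clones.

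Among the alpha subunits, Gnai2, the inhibitory subunit that lowers adenylyl cyclase activity, was listed the most. Its clone 7831 (clones are numbered by their place on the array) had centred log2 ratios of 0.87, 0.85 and 0.47 on treated arrays 1, 2 and 3, against -0.26 and 0.54 in the control pairs. All 6 of its treated spots were listed higher, but control pair 2 lay above treated array 3, so the groups overlap. The limma difference was 0.59 ± 0.31 (SE, 3 treated and 2 control pairs, adjusted p = 0.277). It was 0.19 without control pair 1 and 0.99 without control pair 2, so the size rests on which control pair is kept. The raw intensities behind it were 1025.5, 1948.5 and 9427.5 in treated Cy5 and 571, 1020.5 and 6902 in Cy3 of the same arrays, with 1196.5 and 3985 in Cy5 and 1240 and 3095.5 in Cy3 of the control pairs.

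A second Gnai2 clone, 12242, had ratios of 1.12 and 0.40 on treated arrays 1 and 3, from 3 spots, and was unlisted on treated array 2, against 0.42 and 0.24 in the control pairs. One treated value was above both control values and the other between them. Its limma difference was 0.44 ± 0.33 (SE, adjusted p = 0.474, the unlisted pair dropped), and it was 0.07 without treated array 1, 0.80 without treated array 3 and -0.12 with median centring. The third clone, 8692, was on no treated list and had 0.32 and -0.13 in the control pairs. The Gnai2 clones that were listed thus lay on the same side on the treated arrays, and also above 0 in 3 of their 4 control values.

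The other alpha subunits were listed at 1 clone each or not at all. Gnaq, which activates phospholipase C beta, had 0.80 on treated array 1 against -0.24 and 0.12 in the control pairs. Gna13 had 0.51 on treated array 3 against 0.19 and 0.23. Gna12, its close relative, had -0.57 on treated array 2 against 0.09 and -0.08, and supplied the only alpha spot listed lower. Together the 11 alpha clones gave 11 spots higher and 1 lower of 66 (16.7% and 1.52%), against 4.55% and 0% when the control pairs were listed likewise. Gnai2 supplied 9 of the 11, which leaves 2 higher and 1 lower for the other alpha subunits. The treated shares over all clones were 6.36% higher and 6.22% lower. Gnai1, Gnai3 and Gna14 were unlisted.

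The beta subunit Gnb1, which forms the membrane-bound partner of alpha, was represented by 3 clones that did not share a direction. Clone 2994 had -0.71 and -0.43 on treated arrays 2 and 3 against -0.05 and 0.17 in the control pairs, with both treated values below both controls (limma difference -0.63 ± 0.23, SE, adjusted p = 0.195, the unlisted pair dropped). Clone 2 had -0.87 on treated array 2, from both spots, against 0.13 and -0.15. Clone 7991 had 0.61 on the same array, from 1 spot, against -0.40 and 0.19. After scaling each channel, treated array 2 minus the control pairs was 1.84 in Cy5 and 2.42 in Cy3 for clone 2. For clone 7991 it was -0.30 in Cy5 and -1.30 in Cy3. In both clones Cy5 thus lay opposite to the sign of the ratio, which rests on Cy3. When the Cy5 channels alone were compared, after scaling each channel, the difference of clone 2994 was 0.33 ± 0.54 (SE, limma adjusted p = 0.832), so its negative direction rests on the pairing with Cy3. Its raw intensities were 566.5 and 2907 in treated Cy5 and 977.5 and 3975 in Cy3 of the same arrays, with 696.5 and 1624.5 in Cy5 and 749 and 1427.5 in Cy3 of the control pairs. Gnb2 was unlisted, and of the gamma subunits Gng12 had 0.86 on treated array 2 against -0.03 and -0.22, with Gng3 and Gng13 unlisted. The scaled difference of Gng12 on that array was -0.57 in Cy5 and -1.44 in Cy3, so its positive ratio rests on low Cy3.

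**Figure D2:**
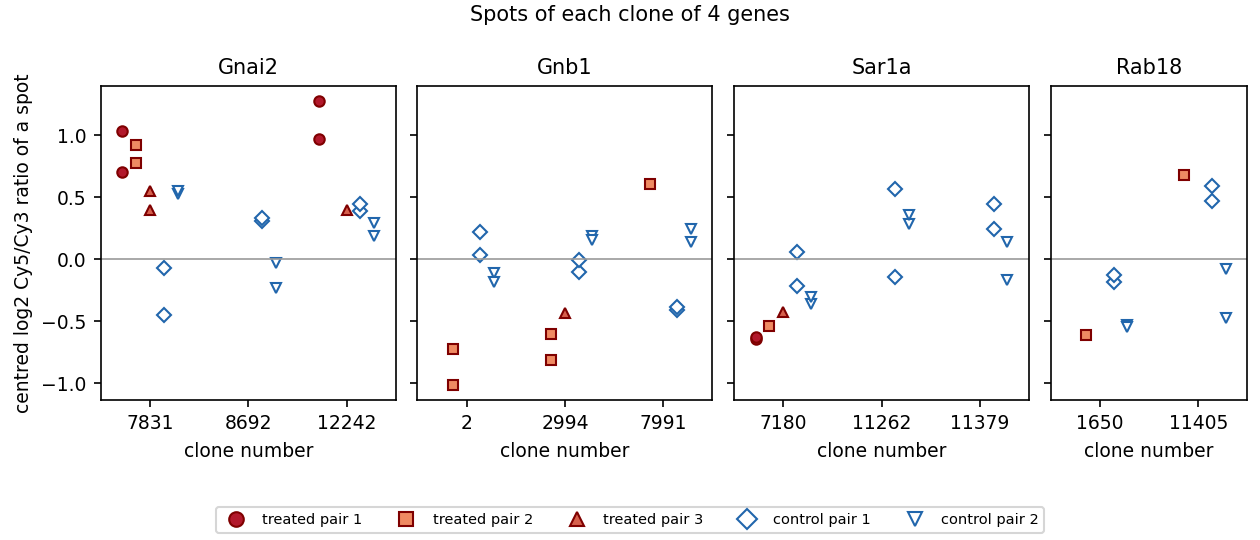
Centred log2 Cy5/Cy3 ratio (vertical axis) of each spot of every clone of Gnai2, Gnb1, Sar1a and Rab18, by clone number (horizontal axis), with treated arrays and control pairs as separate symbols. Both listed Gnai2 clones lie above 0 on the treated arrays, while Gnb1 and Rab18 have clones on both sides of 0.

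The RGS genes gave 5 spots higher and 0 lower of 60, each from a different gene and a single spot. Rgs2, which acts most strongly on the Gq class of alpha subunits, had 0.75 on treated array 1 against 0.01 and 0.10 in the control pairs. Rgs11, whose protein pairs with the beta subunit Gnb5, had 0.70 on the same array against -0.02 and -0.09. Rgs12 had 0.64 there against 0.27 and -0.60, and its control values lay farther from each other than the treated value lay from 0. On treated array 3, Rgs10 had 0.49 against -0.10 and -0.21, and Rgs17 had 0.58 against 0.26 and -0.31. The spots on treated array 1 were dim. Their Cy5 and Cy3 intensities were 243 and 166 for Rgs2, 222 and 157 for Rgs11, and 328 and 235 for Rgs12. The medians of all spots listed there were 355 and 383. After scaling each channel, Cy5 on treated array 1 minus the control pairs was -0.17 for Rgs2, -0.15 for Rgs11 and -0.07 for Rgs12. Their Cy3 differences were -0.69, -0.75 and -1.03, so these positive ratios rest on low Cy3. On treated array 3 the Cy5 difference was 0.36 for Rgs10 and 0.82 for Rgs17, and that of Cy3 was -0.24 and 0.07. Every listed RGS value was above both control values of its clone, which is frequent by construction because only outlying ratios were listed. None was seen on a second array. Listing the control pairs likewise gave 0% of RGS spots higher and 7.5% lower, against 8.33% and 0% on the treated arrays. Over all clones the treated arrays listed 6.36% of spots higher and 6.22% lower, so the higher RGS share lay near that of the array. The RGS shares rest on few spots, and the direction was not tested. These genes entered only the fit of clones listed on any treated array, where none passed the adjusted threshold.

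Among the Rab GTPases, 18 of 35 clones were listed, with 16 spots higher and 9 lower of 210 (7.62% and 4.29%). Over all clones the treated shares were 6.36% and 6.22%. The control pairs listed likewise gave 5.71% of Rab spots in each direction. Rab1a, which serves transport from the endoplasmic reticulum to the Golgi, had 0.69 and 0.58 on treated arrays 1 and 3 against 0.20 and 0.22 in the control pairs, so both treated values were above both controls (limma difference 0.42 ± 0.19, SE, adjusted p = 0.257). With median centring that difference was 0.05, and in Cy5 alone it was 1.14. Its relative Rab1b had 0.73 and -0.40 on treated arrays 2 and 3 against 0.52 and -0.09, with no shared direction.

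The endosomal Rab22a had 0.62 and 0.55 on treated arrays 2 and 3 against 0.21 and 0.33 in the control pairs (limma difference 0.32 ± 0.20, SE, adjusted p = 0.367). That difference was 0.06 with median centring and -0.35 in Cy5 alone. Rab5a, which governs fusion of early endosomes, had 0.62 and 0.41 on treated arrays 1 and 3 against 0.44 and 0.23 (difference 0.18 ± 0.22, SE, adjusted p = 0.729), so its groups overlap. Its difference was 0.07 without treated array 1, 0.08 without control pair 2, 0.28 without control pair 1 and 0.29 without treated array 3. Both clones stood above 0 in the control pairs as well. Recycling endosome Rab11a, of the group that carries water channel vesicles, had -0.54 at 1 clone on treated array 3 against 0.18 and -0.42, and its clones 2798 and 6593 were unlisted, with -0.28 and 0.12, and 0.16 and 0.38, in the control pairs. Rab11b was also unlisted.

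The widest single ratio of any member was that of Rab12, a Rab of the endosomal and lysosomal route, at -2.19 on treated array 1 against -0.14 and -0.30 in the control pairs. It rested on raw intensities of 432 in treated Cy5 and 1972 in Cy3 of the array. The control pairs had 514 and 970.5 in Cy5 and 654 and 980.5 in Cy3, but raw levels differ between arrays. After scaling each channel, treated array 1 minus the control pairs was 0.07 in Cy5 and 2.02 in Cy3. The negative ratio thus rests on Cy3, which held control RNA by its title, and on 1 spot. Over the 8056 clones listed on any treated array, 32.2% had an unadjusted p under 0.05, as did 14 of the 45 members, and none of the members was called (smallest member adjusted p 0.145). The other listed Rab values were of 1 array each: Rab8b had 1.08, Rab6a 0.79, Rab27a 0.65 and Rab35 0.61, and Rab21 had -0.84, Rab14 -0.81, Rab30 -0.70 and Rab32 -0.68. Rab35 and Rab30 rested on both spots, and the rest on 1. The Rab8b value came from intensities of 201 in Cy5 and 108 in Cy3, and that of Rab6a from 331 and 214. After scaling each channel, Cy5 of Rab8b and Rab6a lay below control Cy5 (-0.43 and -0.97). Their Cy3 lay further below control Cy3 (-1.03 and -2.22). Rab24 had 0.41, and Rab17, a Rab of epithelial cells whose upstream sequence is shown above, had 0.55 on treated array 3 against -0.02 and -0.02 in the control pairs. Rab27a, which tethers secretory vesicles, had control values of 0.49 and -0.63, so its treated value of 0.65 was matched in size by a control pair on the other side. Its scaled difference on treated array 3 was -0.05 in Cy5 and -1.08 in Cy3. For Rab35, Rab17 and Rab24 on that array the Cy5 differences were 0.63, 0.16 and 0.98. Rab18 had -0.61 at clone 1650 and 0.68 at clone 11405 on the same array, treated array 2. The control pairs had -0.15 and -0.54 at clone 1650 and 0.53 and -0.27 at clone 11405, so each treated value lay near a control value on its own side.

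**Figure D3:**
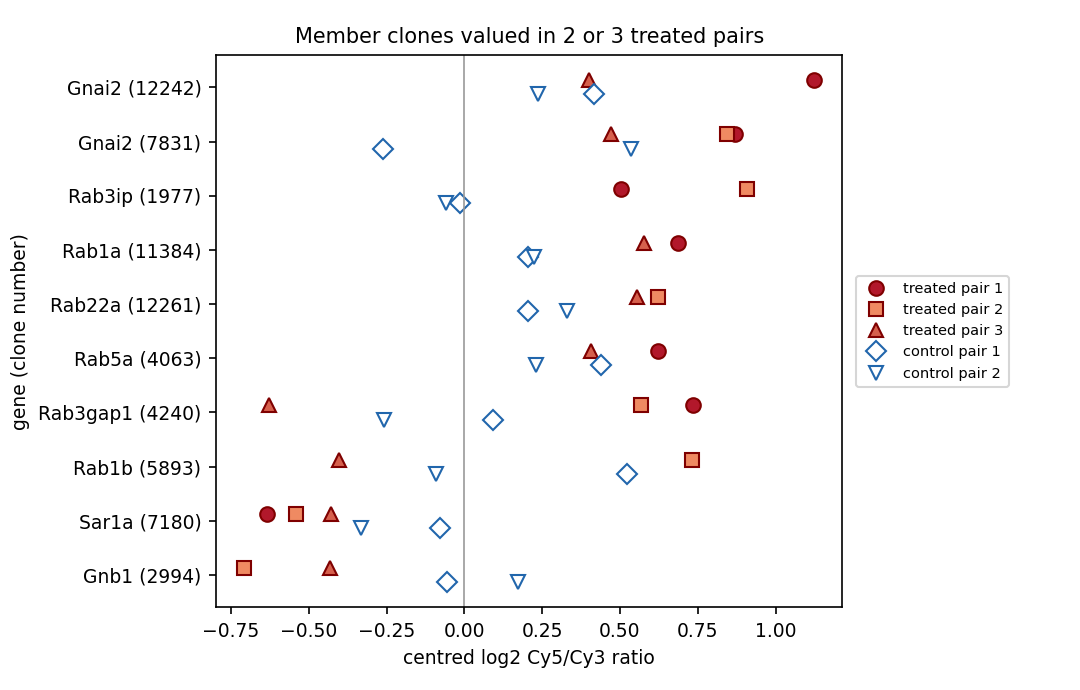
Centred log2 Cy5/Cy3 ratio (horizontal axis) in each treated and control pair for the 10 member clones valued in 2 or 3 treated pairs (rows). Treated and control values are separate for Rab3ip, Rab1a, Rab22a, Sar1a and Gnb1 clone 2994, and overlap for the others.

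Of the Rab partners, Rab3ip, an exchange factor that activates Rab8, had 0.50 and 0.91 on treated arrays 1 and 2 against -0.01 and -0.06 in the control pairs. Both treated values were above both controls, each from 1 spot (limma difference 0.74 ± 0.24, SE, unadjusted p = 0.0385, adjusted p = 0.190). The difference was 0.17 when the scaled Cy5 channels alone were compared. Rab3gap1, the catalytic subunit of the Rab3 GTPase-activating complex, was listed on every treated array, with 0.73, 0.57 and -0.63 against 0.09 and -0.26, so treated array 3 lay opposite to the other two (difference 0.31 ± 0.47, SE, adjusted p = 0.811). Leaving out 1 pair gave 0.05 without treated array 1, 0.13 without treated array 2 or control pair 2, 0.48 without control pair 1 and 0.73 without treated array 3. Rab11fip2, a Rab11 adaptor, had -0.50 on treated array 1 against 0.13 and -0.23.

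Sar1a, the GTPase that starts the coat of vesicles leaving the endoplasmic reticulum, was, after Gnai2 and Rab3gap1, the third gene with a clone listed on every treated array. Its clone 7180 had -0.64, -0.54 and -0.43 against -0.08 and -0.33 in the control pairs, with all 3 treated values below both controls. The raw intensities were 694, 234 and 1785 in treated Cy5 and 1080, 506 and 2406 in Cy3 of the same arrays, with 593 and 1423 in Cy5 and 692 and 1801.5 in Cy3 of the control pairs. The limma difference was -0.33 ± 0.18 (SE, adjusted p = 0.296), and it was -0.20 without control pair 1, -0.62 with median centring and -0.19 in Cy5 alone. Control pair 2 lay nearer to the treated values than control pair 1. The Sar1a clones 11262 and 11379 were on no treated list and had 0.21 and 0.32, and 0.34 and -0.01, in the control pairs.

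The remaining Arf family values were of 1 array each. Arf1, which recruits the coat of Golgi vesicles, had 0.84 at clone 13167 on treated array 2 against -0.12 and 0.33. Its brighter clone 12068, with a mean control intensity of 3696 against 717, was on no treated list. Arf4 had 0.42 on treated array 3 against 0.10 and 0.11, and Arf3 had -0.46 there against 0.22 and -0.50, inside its control range. Among the Arl genes, Arl14 had 0.85 on treated array 3 against -0.14 and 0.14, and Arl3, a GTPase of the primary cilium, had -0.61 on treated array 2 against 0.00 and -0.31. The Arl14 partner Arl14ep had -0.79 on treated array 2 against 0.36 and -0.12. The Arf and Sar1 clones gave 2 spots higher and 5 lower of 42, of which Sar1a supplied 4 of the 5.

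Of the Ras branch, 3 of 12 clones were listed, with 2 spots higher and 1 lower of 72. Rasd1, a Ras-like protein first described in mouse pituitary cells as induced by dexamethasone, had -0.64 on treated array 1 from 1 spot, against -0.12 and 0.15 in the control pairs. Its intensities were 383 in treated Cy5 and 621 in Cy3 of the array, with 287.5 and 742.5 in Cy5 and 473 and 308 in Cy3 of the control pairs. It was unlisted on treated arrays 2 and 3, and in the fit of clones listed on any array its difference was -0.65, from 1 treated value. In raw units the treated Cy5 intensity lay between the control Cy5 values, and the Cy3 intensity of that array lay above both control Cy3 values. After scaling each channel, treated array 1 minus the control pairs was 0.51 in Cy5 and 1.43 in Cy3. The negative Rasd1 ratio thus rests on the Cy3 channel. Nras had 0.53 on treated array 1 at 1 clone against 0.21 and 0.07, and Rap2b had 0.86 on treated array 2 against 0.22 and -0.42. Rala, Ralb, Rap1a, Rap1b, Rras2, Rap1gap and both Ran clones were on no treated list.

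In the control pairs, where no treatment differs by the titles, 0.321% of 15561 clones differed from a ratio of 0 by limma after adjustment (5 higher and 45 lower). No member was among them. In this fit limma gave every member clone the same SE of 0.19, so its p followed the mean of the 2 ratios alone. How far the 2 control pairs of a clone agreed did not enter: Gng3, with -0.38 and 0.65, had the same SE as Gna14, with -0.08 and -0.08. At an unadjusted p under 0.05 there were 8.67% of clones and 4 members. Both clones of Arl1, a GTPase of the trans-Golgi, lay on the positive side, with 0.32 and 0.67 at clone 4724 and 0.50 and 0.56 at clone 13369 (adjusted p = 0.302 and 0.245). Rab6a, which acts in transport within the Golgi, had -0.51 and -0.48 (adjusted p = 0.310), opposite to its 0.79 on treated array 1. Rab11fip5 had -0.28 and -0.60 (adjusted p = 0.406). Mean control ratios of the members ran from -0.49 to 0.53 with a median of 0.01, and 25 clones were above 0 and 27 below 0 in both pairs. The median difference between the 2 spots of a member clone within a control pair was 0.25, and that between its 2 control pairs 0.23, against 0.28 and 0.24 over all clones.

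**Figure D4:**
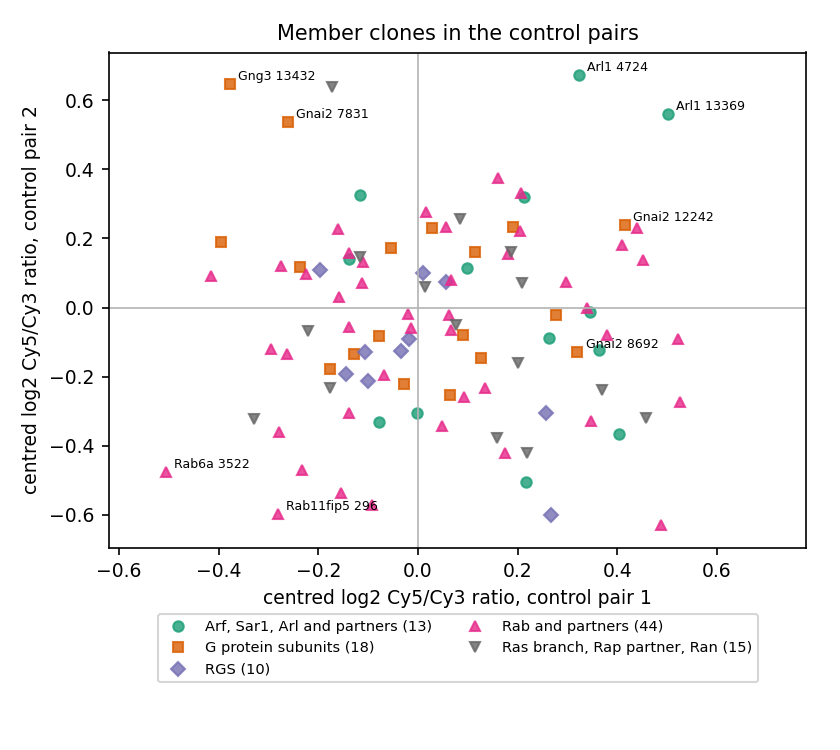
Centred log2 Cy5/Cy3 ratio of each member clone in control pair 1 (horizontal axis) and control pair 2 (vertical axis), with symbols for the families. Both Arl1 clones stand at the upper right with values of 0.32 to 0.67, Rab6a lies at the lower left, and Gnai2 clone 7831 has -0.26 in pair 1 and 0.54 in pair 2.

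Agreement between clones of a gene gives a further view of the listing. Of the 19 member genes with 2 or more clones, 3 had 2 or more clones listed with a direction. Gnai2 had its listed clones on 1 side, and Gnb1 and Rab18 had clones on both. Over all genes with a single symbol, 292 of 581 such genes (50.3%) had every listed clone on 1 side. Besides Gnai2, Sar1a and Rab11a, the genes Arf1, Gnaq, Gna13, Rgs2, Rgs12, Rab14, Rab3gap1, Rap2b and Nras had a listed clone beside unlisted ones. Their values above are therefore of a clone and not of the gene.

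Other genes of these pathways were read from lists of enzymes and of effectors. Of 29 GTPase regulators and lipid-modifying enzymes, 21 had a clone, and none of their 31 clones was called. These clones gave 14 spots higher and 7 lower of 186 (7.53% and 3.76%), against 6.36% and 6.22% over all clones. By clone, 8 were listed more higher and 7 more lower. The lower clones included, on 1 array each, Ranbp1 at -0.59, Fntb at -0.55, Icmt at -0.44, Gbf1 at -0.78 and Arfgap2 at -0.74. Rangap1, which activates GTP hydrolysis by Ran, had a limma difference of 0.88 ± 0.25 (SE, adjusted p = 0.19), and Rce1, the protease that trims farnesylated and geranylgeranylated GTPases, had 0.59 ± 0.18 (SE, adjusted p = 0.19). Rce1 clone 4306 was listed on every treated array, with 0.62, 0.77 and 0.48 against 0.05 and 0.02 in the control pairs, and its clone 5599 had 0.54 on treated array 1 against 0.00 and 0.07. Both Rce1 clones were thus above their control values wherever they were listed. That is frequent by construction, because only outlying ratios were listed. Of the clones valued in 2 or 3 treated pairs, 28.5% had every treated ratio above both control pairs. The scaffold Iqgap1 had 0.65 and 0.48 on treated arrays 1 and 3 at clone 738 against 0.11 and -0.11, but -1.96 on treated array 1 at clone 3643 against -0.10 and -0.30. Of 25 effectors and partners of G proteins, 12 had a clone, and none was called. They gave 3 spots higher and 5 lower of 78 (3.85% and 6.41%), near the shares over all clones. Plcb3, a phospholipase C that Gq subunits activate, had -0.75 ± 0.19 (SE, adjusted p = 0.19). Nucb1 lay the other way, with a limma difference of 0.36 ± 0.23 (SE, adjusted p = 0.389). The adjusted p of 0.19 shared by Rangap1, Rce1 and Plcb3 was the smallest in that limma fit, but it is a tie and not a rank. The adjustment gave this 1 value to clones whose unadjusted limma p differed (0.0245, 0.0221 and 0.0180). In that fit 25.8% of clones had an unadjusted p under 0.05.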

How the data were processed

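The values are spot intensities on a linear scale, which the authors deposited as 1 column per channel. Per the submitters' design text, mean spot intensities were measured in Imagene 4.0; background correction and the rule that selected treated spots are, for this table, not given in the sources used here. Values cover 10 channels, joined into 3 treated and 2 control pairs by the numbers in their titles.

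Each spot gave a log2 ratio of Cy5 over Cy3. Control pairs were centred by lowess (statsmodels 0.14.6, span 0.2), and treated arrays, which lack central ratios, on the midpoint of the empty band in windows of 150 spots (span 0.3). Spots of a clone were averaged. Treated pairs were compared with control pairs in limma 3.58.1 (R 4.3.3) with Benjamini-Hochberg adjustment over all clones fitted, a missing pair being dropped and never imputed. For a clone with 1 treated value, the error came from its control pairs and the variance shared over clones. It then held no spread among treated arrays. For fits of single channels, log2 intensities of control channels were centred on their median, and channels of treated arrays were shifted so that their median difference from the control channels of the same dye was 0. Control pairs were listed likewise by taking the most outlying spots in windows of 1000 spots along intensity. The number of arrays limits the precision.

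Named genes were Gnai2, Gnb1 and Rasd1, clones past a threshold, clones valued in 3 treated pairs or in 2 with 1 direction, and the most listed clone of each group; other listed members are given as single values, chosen after their values were seen. One further list is not reported here. Members and lists were chosen with earlier results of these data known. Gene symbols come from an older platform annotation, and upstream sequences from RefSeq (GRCm38.p6). Alternatives changed the centring, the value added (50), the dim filter, the pairing, the channels and the pairs kept. A filter at a mean control intensity of 500 and the removal of Gnai2 were added after seeing the data.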

Additional observations from a re-analysis of the deposited data

How the results depend on the processing

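Over all 5 pairs, 1 clone was called lower; 0 were called lower with no replicate block, with pair as a random replicate block and in Cy5 alone, and 0 to 1 when 1 pair was left out (1 only without treated replicate 1). Over clones valued in 2 or 3 treated pairs, where 0 were called in either direction, 7 were higher and 1 lower when only clones with both spots listed were kept. There 1 was lower with median centring and 1 when clones of any treated pair entered, and 0 to 1 when 1 pair was left out (1 only without treated replicate 1). In the control pairs the 5 higher and 45 lower calls became 0 and 0 in limma with median centring, where 60 were higher and 111 lower at an unadjusted p under 0.05. Member spots listed higher numbered 27 to 33 when 1 treated array was left out, and those listed lower 13 to 20. With 1 clone per gene, 14 were listed lower and 37 higher.

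No member was called under any of the settings run. The direction of 5 of the 10 member clones valued in 2 or 3 treated pairs reversed under a setting. Gnb1 clone 2994 had 0.33 with no replicate block and in Cy5 alone. Rab5a had -0.16 and Gnai2 clone 12242 had -0.12 with median centring. Rab1b, at -0.05, had values from -0.62 to 0.52 when 1 pair was left out, 0.27 with no replicate block and in Cy5 alone, and 0.042 with the random block. Rab22a had -0.35 with no replicate block and in Cy5 alone, and -0.048 with the random block. The cause was not tested. No ratio or bound was derived for a clone that a treated array does not list, and the dim filter at 200 removed no clone.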
